A study of Homo sapiens with 13 samples.

Results

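The ADAM, ADAMTS and ADAMTSL genes of human osteoblasts were followed across serum feeding, serum starvation and 3 plant compounds. Members were the genes of the count table whose Ensembl identifier has a protein-coding symbol made of ADAM, ADAMTS or ADAMTSL and a number, which gave 44 of the 43836 genes. Of these 44 members, 41 had at least 1 read and 29 passed the low-count filter, which is what "expressed" means below. The rule used the symbols and no measured value, but the family was chosen with earlier results of these data known. At least the 5 ADAMTSL members and the 3 brain ADAMs among them have no working protease domain. Whether each of the testis ADAMs has an active site was not examined.

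Messenger RNA was sequenced from hFOB 1.19, an immortalized human fetal osteoblast line, so each group is a treatment of 1 line and no donors differ. Positive controls were grown in 10% fetal bovine serum (FBS) and negative controls without FBS, and both received the vehicle, dimethyl sulfoxide. The 3 other groups were also grown without FBS and received 1 µg/mL of a compound. RES was resveratrol and POG was the anthocyanin peonidin-3-O-glucoside. The labels leave DEG unexplained, and their treatment note lists delphinidin-3-glucoside beside the other compounds. There were 2 positive control, 2 negative control, 3 RES, 3 POG and 2 DEG libraries. The labels do not say whether libraries of a group came from separate cultures, so the p-values measure the spread between these libraries, which may be technical.

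ADAMs are membrane proteins with a metalloprotease and a disintegrin domain, and those with an intact active site release growth factors, cytokines and receptors from the cell surface, a process called shedding. ADAMTS proteins are secreted relatives that carry thrombospondin repeats and cut matrix proteins, among them proteoglycans, procollagens and von Willebrand factor. ADAMTSL proteins share the thrombospondin repeats, lack the protease domain and bind the microfibrils built from fibrillin. In bone, members of these families trim the collagen precursors that osteoblasts secrete and release signals that reach neighbouring cells. The mRNA level of a protease is not its activity, which also depends on cleavage of its propeptide and on inhibitors such as the TIMPs.

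Library totals ran from 38464619 to 51416358 counted reads. The osteoblast markers COL1A1 (2463 to 2869 CPM), SPARC (1019 to 1177 CPM) and RUNX2 (44.3 to 51.6 CPM) were abundant. ALPL (3.22 to 6.66 CPM), SPP1 (0.955 to 2.34 CPM) and BGLAP (0.425 to 2.00 CPM) were low, while SP7 and IBSP did not pass the filter. CPM values are read counts divided by the TMM-scaled library total. Among markers of other cell types, 1 of 3 fat, 1 of 3 epithelial, 2 of 3 endothelial, 2 of 3 blood and osteoclast and 4 of 4 chondrocyte genes passed the filter. Their summed levels per library were 0.465 to 1.17 CPM (fat), 0.258 to 0.688 (epithelial), 1.33 to 3.25 (endothelial), 9.96 to 13.9 (blood and osteoclast, mostly CTSK) and 4.08 to 8.08 (chondrocyte). The chondrocyte sum was highest in the positive controls, at 8.07 and 8.08 CPM, and lowest with POG (4.08 to 4.73 CPM), and its part in the results was not tested. PTPRC, CDH5, ADIPOQ and KRT5, from the blood, endothelial, fat and epithelial lists, did not pass the filter and did not exceed 0.156 CPM in any library. Other genes of these lists reached more. The highest library values were 2.47 CPM for PECAM1, 1.55 for ACP5, 1.42 for KDR, 1.17 for PLIN1, 0.545 for EPCAM and 0.269 for CDH1. The pair of positive controls differed more than other pairs of one group (mean chi-square per gene 11 against 2.07 to 2.66), and positive control replicate 2 lay above replicate 1 in several members given below. The spread used in the tests was estimated over all 12 libraries, so SEs and FDRs with serum may be too small.

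The expressed members covered a wide range of levels. Set per kilobase of the longest transcript, so that genes can be compared, ADAM9 was highest at 48.3 CPM per kb over the 12 libraries, followed by ADAM15 at 25.9 and ADAMTSL4 at 19.3 CPM per kb. ADAM19 (17.8 CPM per kb), ADAM10 (15.3), ADAMTS7 (15.2) and ADAM17 (14.1) came next, and then the first proteases of the collagen and proteoglycan groups, ADAMTS2 at 12.2 and ADAMTS1 at 10.4 CPM per kb. ADAM9 stood apart from all other members in every library, whereas ADAM19 reached the level of ADAM15 in the positive controls. The order among ADAM19, ADAM10, ADAMTS7 and ADAM17 was not fixed, since their library values crossed. The order of the means also changed with serum. In the positive controls ADAMTS2 (19.6 CPM per kb) and ADAMTS1 (17.9) lay above ADAMTSL4 (16.0), ADAMTS7 (15.3), ADAM10 (14.1) and ADAM17 (13.9). The lowest expressed members were ADAMTS4 at 0.0558, ADAM22 at 0.0335 and ADAM28 at 0.0232 CPM per kb.

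**Figure D1:**
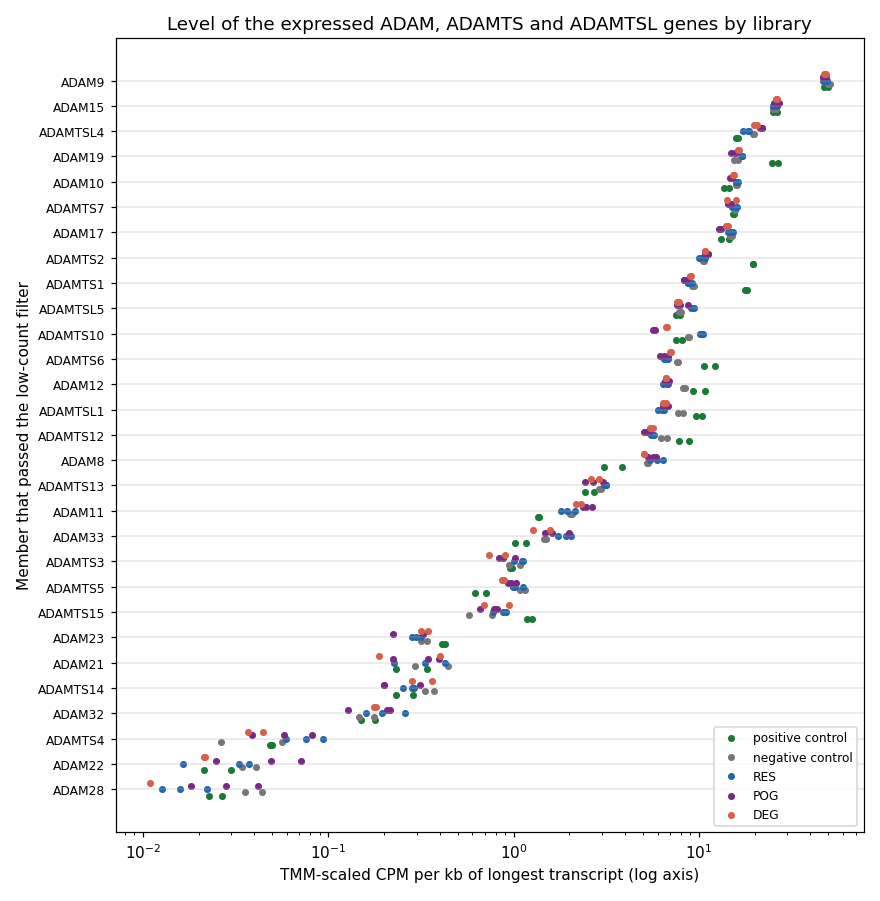
Level of the 29 expressed members in each of the 12 libraries, in TMM-scaled CPM per kb of the longest transcript on a log axis, with 1 point per library coloured by group and members ordered by their mean; a log axis cannot show the 0 reads of ADAM28 in DEG replicate 2. ADAM9 (48.3 CPM per kb) leads, and ADAMTS1, ADAMTS2 and ADAM19 show the positive controls to the right of all other libraries.

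The 15 members below the filter were ADAM2, ADAM7, ADAM18, ADAM20, ADAM29, ADAM30, ADAMTS8, ADAMTS9, ADAMTS16, ADAMTS17, ADAMTS18, ADAMTS19, ADAMTS20, ADAMTSL2 and ADAMTSL3. ADAM2, ADAM18 and ADAMTS18 had 0 reads in all 12 libraries. ADAMTSL3 had the most reads of the 15, 55 over the 12 libraries, and did not exceed 0.194 CPM. Of the 8 ADAMs known from testis and sperm, 2 were expressed, ADAM21 and ADAM32, each between 0.594 and 1.79 CPM. None of the 4 ADAMTS with less well known substrates, ADAMTS16 to ADAMTS19, was expressed. At these depths a level near 0 is a limit of detection and does not show that a gene was silent.

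The first comparison asked what serum changes. Between positive and negative controls 15 of the 29 expressed members (51.7%) were called at an FDR under 0.05 by edgeR, 8 higher and 7 lower with serum, while 42.4% of all 17092 genes tested were called, 21.4% higher and 20.9% lower. The share of members called thus lay near that of all genes. Their median absolute log2 fold change was 0.34 against 0.21 over all genes. The members that rose were ADAMTS1, ADAMTS2, ADAMTS15, ADAM19, ADAMTS6, ADAMTS12, ADAMTSL1 and ADAM12, and those that fell were ADAMTS5, ADAM8, ADAM11, ADAM33, ADAMTSL4, ADAM10 and ADAMTS10. In a culture of 1 line, fewer cells that express a gene and less RNA per cell cannot be told apart.

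The next comparisons asked which members each compound changed in serum-starved cells. With RES 8 of 29 members (27.6%) were called, 3 higher and 5 lower, against 11.2% of all genes, 4.94% higher and 6.21% lower. With POG 10 members (34.5%) were called, 2 higher and 8 lower, against 14.5% of all genes, 5.93% higher and 8.57% lower. With DEG 6 members (20.7%) were called and all 6 were lower, against 9.63% of all genes, 3.52% higher and 6.11% lower. No test was run on the difference between the members and all genes. The 2 sets were not matched for read count, on which a call depends, so the shares are not like for like. Median absolute log2 fold changes of the members were 0.16 under RES, 0.19 under POG and 0.086 with DEG. Those of all genes were 0.10, 0.11 and 0.10. The changes were therefore small, and none of the called members above 1 CPM reached a 2-fold change with a compound. All 4 comparisons use the same 2 negative control libraries, and without either of them the members called dropped to 5 or 4 with RES, to 6 with POG and to 4 with DEG. Scaling libraries by plain totals gave 4 members higher and 4 lower with RES and 2 higher and 6 lower with POG, and over all genes it moved the share of calls that were higher from 44.3% to 64.0% with RES, from 40.9% to 56.0% with POG and from 36.6% to 49.3% with DEG.

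**Figure D2:**
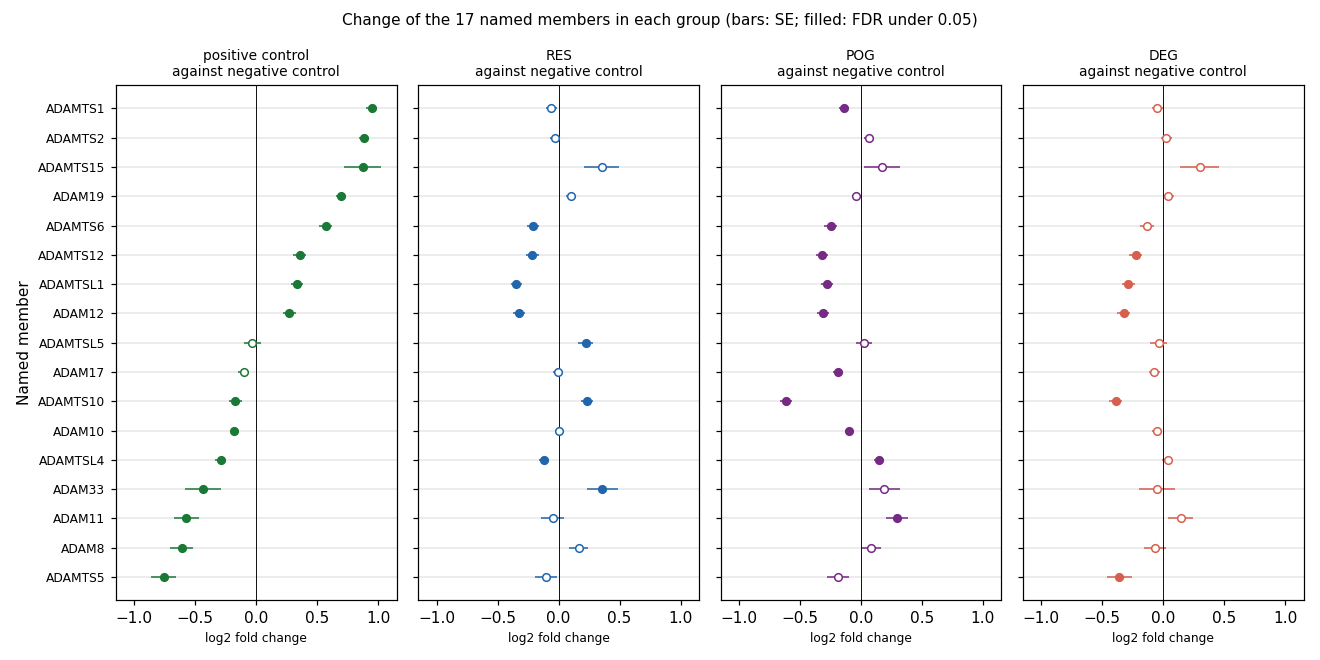
Log2 fold change of 17 members in the positive control, RES, POG and DEG groups, each against the 2 negative control libraries, with bars for the SE and filled points for an edgeR FDR under 0.05. Changes with serum run from −0.76 (ADAMTS5) to 0.95 (ADAMTS1), and the largest change of these members with a compound is −0.61 (ADAMTS10 with POG).

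The fibrillin-linked proteases ADAMTS10 and ADAMTS6 were both called with serum, RES and POG. ADAMTS10 (ENSG00000142303.13, chromosome 19, 8580240 to 8610735, minus strand; hg38 throughout) binds fibrillin microfibrils and is mutated in Weill-Marchesani syndrome. It measured 37 and 37.6 CPM in the negative controls, 43.4, 44.7 and 43.3 with RES, 24.7, 24.4 and 24.1 with POG and 28.5 and 28.3 with DEG. The positive controls, at 31.8 and 34.5 CPM, lay between DEG and the negative controls. No 2 of the 5 groups overlapped: RES was highest and POG lowest. Against the negative control ADAMTS10 rose with RES (log2 change 0.23, SE 0.049, edgeR FDR 0.000150) and fell with POG (log2 change −0.61, SE 0.051, edgeR FDR 2.61e-28). It also fell with DEG (log2 change −0.39, SE 0.056, edgeR FDR 2.26e-09) and, to a lesser extent, with serum (log2 change −0.17, SE 0.055, edgeR FDR 0.00771). The call with serum was lost without positive control replicate 1 (FDR 0.226) or negative control replicate 2 (FDR 0.0827) or with dispersions from the groups compared (FDR 0.0576), whereas the calls with the 3 compounds held without any 1 library. Compared directly, ADAMTS10 was 1.80-fold lower with POG than with RES (log2 change −0.85, SE 0.045, edgeR FDR 1.45e-72).

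ADAMTS10, ADAMTS12 and ADAMTSL1 had the largest absolute log2 fold changes among the members called in every comparison with the negative control. ADAMTS10 was higher with RES and lower with POG and DEG, while ADAMTS12 and ADAMTSL1 were lower with each compound. ADAM12, also called in every such comparison and lower with each compound, had a smaller largest change and is not shown. The RefSeq promoters of ADAMTS10, ADAMTS12 and ADAMTSL1 are given, and their part in these changes was not tested. Each window holds the 250 bases before the RefSeq start (GRCh38.p14), 5′ to 3′ on the strand of the gene, in lower case with motif matches in capitals. ADAMTS10 lies on the minus strand at chr19:8610716-8610965, ADAMTS12 on the minus strand at chr5:33891991-33892240 and ADAMTSL1 on the plus strand at chr9:18473903-18474152. The ADAMTSL1 start used by RefSeq lies 567590 bases inside the GENCODE gene.
ADAMTS10: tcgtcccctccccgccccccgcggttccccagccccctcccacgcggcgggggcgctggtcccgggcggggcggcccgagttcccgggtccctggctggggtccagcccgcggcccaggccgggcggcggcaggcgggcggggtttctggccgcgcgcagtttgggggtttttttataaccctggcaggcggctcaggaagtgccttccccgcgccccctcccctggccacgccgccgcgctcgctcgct
ADAMTS12: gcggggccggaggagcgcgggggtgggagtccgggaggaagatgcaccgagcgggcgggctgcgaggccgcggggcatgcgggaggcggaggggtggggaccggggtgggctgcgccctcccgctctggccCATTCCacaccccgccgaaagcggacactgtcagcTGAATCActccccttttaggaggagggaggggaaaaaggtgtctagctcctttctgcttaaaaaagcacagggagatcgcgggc
ADAMTSL1: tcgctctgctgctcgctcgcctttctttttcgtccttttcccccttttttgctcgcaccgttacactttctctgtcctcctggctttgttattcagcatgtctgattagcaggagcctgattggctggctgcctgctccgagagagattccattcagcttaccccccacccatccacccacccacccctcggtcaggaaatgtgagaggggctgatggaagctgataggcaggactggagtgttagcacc
The letters searched on both strands were TGANTCA (AP-1), GGAATG (TEAD), TGACNNNGC (antioxidant response element core) and CACGTG (E-box). TGANTCA and TGACNNNGC can match overlapping letters. In the ADAMTS12 window the capitals mark TGAATCA, which starts 84 bases before the start, and CATTCC, the reverse complement of GGAATG, 119 bases before it. The ADAMTS10 and ADAMTSL1 windows printed here hold none of the 4 motifs, and their GC content was 78.4% and 54.8% against 68.4% for ADAMTS12. ADAMTS10 has 2 RefSeq windows, and only the one nearest the 5′ end of the GENCODE gene is shown. Among 35116 RefSeq promoter windows of 300 bases, 7.71% hold TGANTCA, 14% GGAATG, 13.3% TGACNNNGC and 7.26% CACGTG, and in the 250 bases before the start alone, the length printed here, the shares are 6.57%, 11.9%, 10.9% and 6.34%. A promoter window was found for 29 of the 44 members. A match describes letters in a window and says nothing of binding.

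ADAMTS6, the close paralog of ADAMTS10, measured 78.1 and 89.4 CPM in the positive controls, 56 and 56.7 in the negative controls, 48.6, 50.1 and 47.5 under RES, 45.2, 47.4 and 49.5 under POG and 51.7 and 51.2 under DEG. Serum was highest, and every compound library lay below both negative controls. ADAMTS6 rose with serum (log2 change 0.57, SE 0.054, edgeR FDR 1.24e-22), fell with POG (log2 change −0.25, SE 0.051, edgeR FDR 7.94e-05) and fell with RES by 0.21 on the log2 scale (SE 0.051, edgeR FDR 0.00207). With DEG the value of −0.13 was not called (edgeR FDR 0.162) but became a call with dispersions from the groups compared (FDR 0.0264). Without negative control replicate 2 the call with RES was lost (edgeR FDR 0.0707). Unlike ADAMTS10, ADAMTS6 showed no call between POG and RES, with a difference of −0.041 (95% confidence interval −0.13 to 0.053).

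All 9 membrane sheddases with an active site were expressed, and their summed level was 939.9 ± 6.37 CPM in the negative controls (SD, n = 2), 972 ± 42.1 with serum (n = 2), 923 ± 12.4 with RES (n = 3), 885 ± 4.75 with POG (n = 3) and 902 ± 10.0 with DEG (n = 2). ADAM12 (ENSG00000148848.14, chromosome 10, 126012381 to 126388477, minus strand), or meltrin alpha, sheds heparin-binding EGF and cuts IGF-binding proteins. Its libraries were 74.1 and 85.8 CPM in the positive controls, 65.5 and 67 in the negative controls, 54.1, 50.6 and 53.5 under RES, 54.7, 51.9 and 53.3 under POG and 52.9 and 52.8 under DEG. The positive controls were highest and all 8 compound libraries lay below both negative controls, with no overlap. ADAM12 rose with serum (log2 change 0.27, SE 0.053, edgeR FDR 7.06e-06). It fell with RES (log2 change −0.33, SE 0.050, edgeR FDR 2.83e-08). It fell with POG as well (log2 change −0.31, SE 0.050, edgeR FDR 8.92e-08), and with DEG the change was −0.33 (SE 0.055, edgeR FDR 1.16e-06). The fall was 1.26-fold, 1.24-fold and 1.25-fold. These 4 calls held under every alternative and without any 1 library. Between compounds ADAM12 was not called, and the differences were 0.015 (95% confidence interval −0.076 to 0.11) for POG minus RES and −0.012 (95% confidence interval −0.12 to 0.092) for DEG minus POG on the log2 scale.

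**Figure D3:**
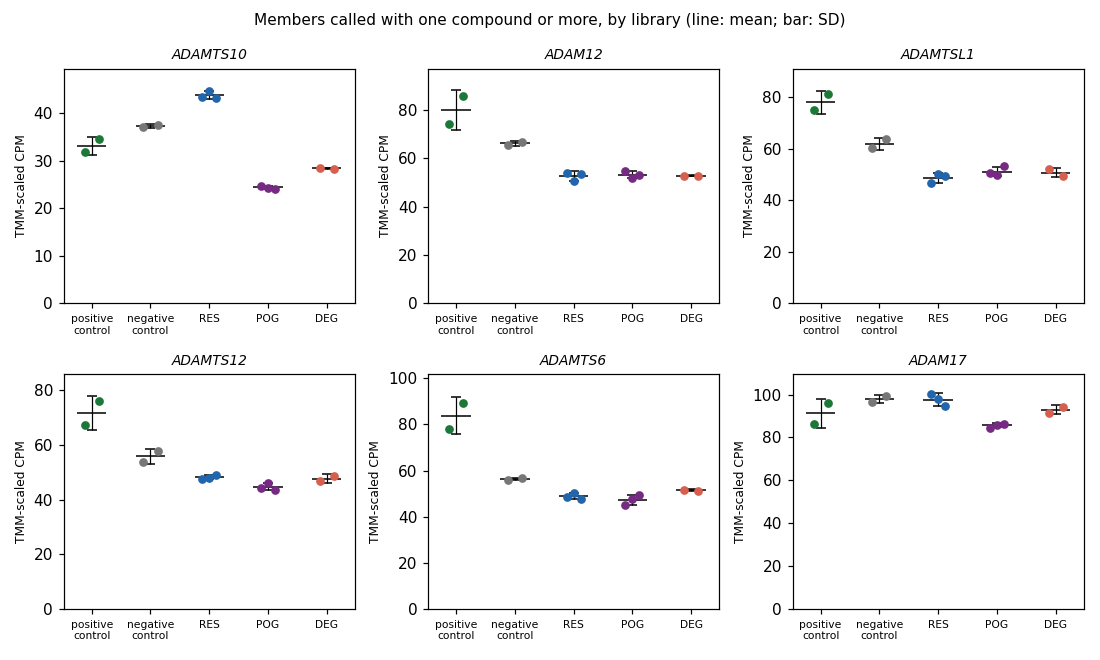
TMM-scaled CPM of ADAMTS10, ADAM12, ADAMTSL1, ADAMTS12, ADAMTS6 and ADAM17 in each library, with points for libraries, a line for the group mean and a bar for the SD, each axis starting at 0. ADAMTS10 separates RES (43.3 to 44.7 CPM) from POG (24.1 to 24.7 CPM), whereas for ADAM12 and ADAMTSL1 the 3 compounds lie together below the negative controls.

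ADAM17, known as TACE, releases tumour necrosis factor and EGF-receptor ligands, and ADAM10 cuts Notch receptors, N-cadherin and the amyloid precursor. The libraries of ADAM17 (ENSG00000151694.12, chromosome 2, 9488486 to 9556732, minus strand) were 86.3 and 96.1 CPM in the positive controls, 96.4 and 99.2 in the negative controls, 100.4, 97.9 and 94.5 under RES, 84.6, 85.8 and 86.4 under POG and 91.5 and 94.4 under DEG. All 3 POG libraries lay below every negative control, RES and DEG library. ADAM17 fell with POG (log2 change −0.19, SE 0.041, edgeR FDR 0.000291) and was lower with POG than with RES (log2 change −0.19, SE 0.037, edgeR FDR 1.75e-05), but was not called with serum, RES or DEG (edgeR FDR 0.0776, 0.998 and 0.419). Without positive control replicate 2 the value with serum was called at −0.17 (edgeR FDR 0.000267), and with plain library totals it was called with all libraries (edgeR FDR 0.00979). ADAM17 was also called between DEG and POG with dispersions from the groups compared (edgeR FDR 0.00664, against 0.199 with those over all libraries). ADAM17 shares 1645 exonic bases with IAH1 on the opposite strand, and the strand setting of the counting is not given in the sources used here. IAH1 moved the other way with POG (log2 change 0.16, SE 0.052, edgeR FDR 0.0245).

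ADAM10 measured 153 and 162 CPM in the positive controls, 179 and 178 in the negative controls, 182, 179 and 178 under RES, 167, 165 and 169 under POG and 171 and 173 under DEG. It fell by 0.18 on the log2 scale with serum (SE 0.035, edgeR FDR 2.25e-05) and by 0.10 with POG (SE 0.032, edgeR FDR 0.0450). The POG value was small and its call was lost without any 1 of the 5 libraries compared (edgeR FDR 0.0822 to 0.265), with plain library totals (FDR 0.165) and with no low-count filter (FDR 0.178). ADAM9 and ADAM15, the most abundant members per kb in the mean over all libraries, were called in no comparison. ADAM9 ranged from 329 to 359 CPM and ADAM15, which can bind integrins through its disintegrin domain, from 113 to 122 CPM over the 12 libraries. For ADAM15 the interval of the change was −0.077 to 0.092 with serum and −0.036 to 0.12 with POG.

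ADAM19 and ADAM8 moved in opposite directions with serum. ADAM19, or meltrin beta, which sheds neuregulin, was 161 and 174 CPM in the positive controls, 105 and 101 in the negative controls, 111, 110.2 and 111 under RES, 96.7, 103 and 102 under POG and 107 and 105 under DEG. Both positive controls stood clear of every other library, a 1.62-fold rise (log2 change 0.70, SE 0.041, edgeR FDR 8.87e-54). ADAM8, a sheddase best known from leukocytes and osteoclasts, was 10.0 and 12.6 CPM in the positive controls, 17.4 and 17.1 in the negative controls, 17.9, 19.4 and 20.8 under RES, 17.2, 19.2 and 18.5 under POG and 16.4 and 16.5 under DEG, and the positive controls were lowest (log2 change −0.61, SE 0.092, edgeR FDR 3.45e-10). Neither was called against the negative control with a compound, although ADAM19 with RES (0.10, edgeR FDR 0.0928) became a call with plain library totals (FDR 0.0232) or with dispersions from the groups compared (FDR 0.0139). Between compounds ADAM19 was lower with POG than with RES (log2 change −0.14, SE 0.034, edgeR FDR 0.000959) and ADAM8 lower with DEG than with RES (log2 change −0.23, SE 0.081, edgeR FDR 0.0235), the latter lost without RES replicate 2, RES replicate 3 or either DEG library (FDR 0.0607 to 0.159) and with DESeq2 (adjusted p 0.0527).

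ADAM33, a sheddase named from asthma genetics, was a low-level member at 3.74 and 4.29 CPM in the positive controls, 5.40 and 5.48 in the negative controls, 7.04, 6.35 and 7.52 under RES, 7.33, 5.42 and 5.90 under POG and 4.70 and 5.80 under DEG. It fell with serum (log2 change −0.44, SE 0.15, edgeR FDR 0.00951), which was lost without positive control replicate 1 (FDR 0.119) or negative control replicate 2 (FDR 0.0613). The 3 RES libraries lay above both negative controls, but the call was marginal (log2 change 0.36, SE 0.13, edgeR FDR 0.0479): it was lost with the quasi-likelihood test, with median-of-ratios scaling, with DESeq2 (FDR 0.0739, 0.0502 and 0.0950) and without any of 4 single libraries, negative control replicate 1 or 2 and RES replicate 1 or 3 (FDR 0.120 to 0.283). ADAM28 rested on few reads, 12 and 10 in the negative controls, 8 and 8 in the positive controls, 4, 5 and 7 with RES, 9, 13 and 6 with POG, and 3 and 0 with DEG. DEG was called lower (edgeR FDR 0.0129), which did not hold without negative control replicate 1 or 2 or DEG replicate 2 (FDR 0.0538 to 0.377) or with no low-count filter (FDR 0.0682), and no fold is drawn from 3 reads.

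The proteoglycan-cleaving ADAMTS had 4 expressed members of 7, and their summed level was 118 ± 2.36 CPM in the positive controls and 69.2 ± 0.413 in the negative controls (SD, n = 2 and 2). ADAMTS1, which cuts versican and aggrecan, made up most of it. ADAMTS1 (ENSG00000154734.14, chromosome 21, 26835755 to 26845409, minus strand) measured 103 and 105 CPM in the positive controls, 54.6 and 53.2 in the negative controls, 51, 50.7 and 53.6 under RES, 48.2, 50.3 and 48.2 under POG and 51.8 and 52.6 under DEG. Serum was 1.93-fold higher with no overlap (log2 change 0.95, SE 0.045, edgeR FDR 8.91e-90), the largest called change of a member with serum. The POG libraries lay below the negative controls by less (log2 change −0.14, SE 0.043, edgeR FDR 0.0179), and that call was lost without negative control replicate 1, negative control replicate 2, POG replicate 1 or POG replicate 3 (FDR 0.0788 to 0.227), with plain library totals (FDR 0.0598) and with no low-count filter (FDR 0.0695). ADAMTS15, another versican-cleaving protease, was 7.12 and 7.56 CPM in the positive controls, 3.43 and 4.58 in the negative controls, 4.67, 5.45 and 5.25 under RES, 4.73, 4.90 and 3.94 under POG and 4.16 and 5.70 under DEG, and rose with serum (log2 change 0.87, SE 0.15, edgeR FDR 3.88e-08). All RES libraries exceeded both negative controls without a call (edgeR FDR 0.0947), which became one without negative control replicate 2 (FDR 0.0366) or with dispersions from the groups compared (FDR 0.0473).

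ADAMTS5, the main aggrecanase of cartilage on chromosome 21 like ADAMTS1, moved the other way with serum. Its libraries were 5.93 and 6.88 CPM in the positive controls, 11.1 and 10.5 in the negative controls, 10.8, 9.54 and 9.76 under RES, 9.01, 9.98 and 9.38 under POG and 8.52 and 8.29 under DEG. The positive controls were lowest and did not overlap with any other library (log2 change −0.76, SE 0.10, edgeR FDR 5.94e-12). Both DEG libraries lay below the negative controls, RES and POG (log2 change −0.36, SE 0.10, edgeR FDR 0.00838 against the negative control), and the call was lost without negative control replicate 1, DEG replicate 1 or DEG replicate 2 (FDR 0.0646 to 0.143). ADAMTS4, the other classical aggrecanase, stayed between 0.258 and 0.920 CPM and was not called.

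**Figure D4:**
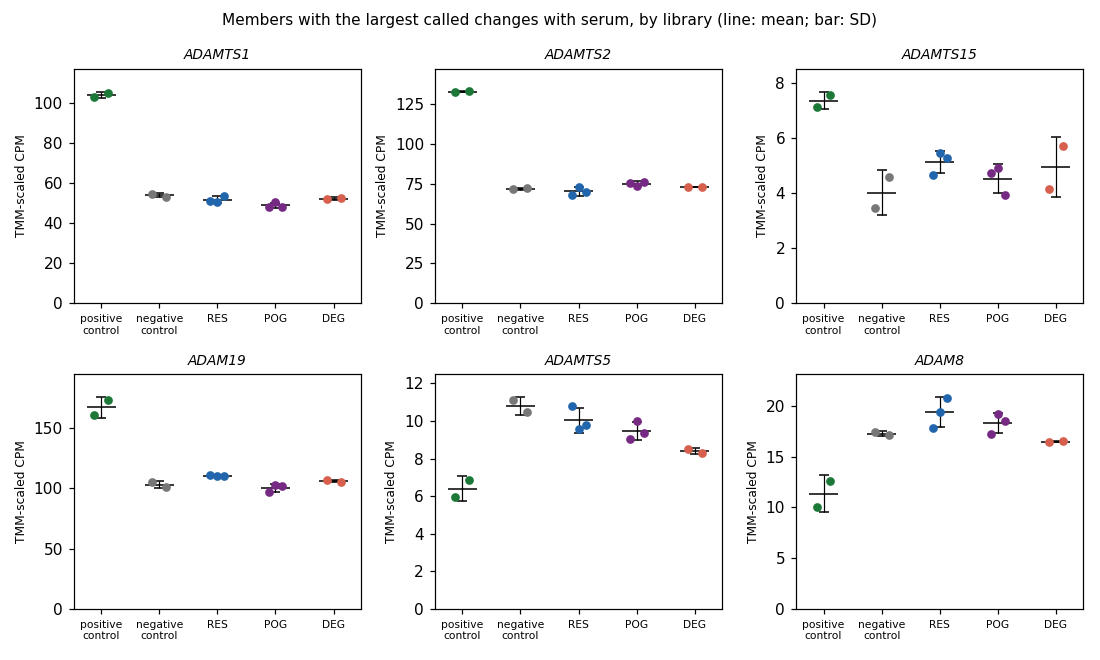
TMM-scaled CPM of ADAMTS1, ADAMTS2, ADAMTS15, ADAM19, ADAMTS5 and ADAM8 in each library, with points for libraries, a line for the group mean and a bar for the SD, each axis starting at 0. The positive controls lie above all other libraries for ADAMTS1 (103 and 105 CPM), ADAMTS2, ADAMTS15 and ADAM19 and below them for ADAMTS5 and ADAM8.

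All 3 procollagen N-propeptidases, the enzymes that remove the amino-terminal propeptide of fibrillar collagens, were expressed. ADAMTS2 (ENSG00000087116.14, chromosome 5, 179110853 to 179345461, minus strand), mutated in dermatosparaxis, measured 133 and 133 CPM in the positive controls, 71.6 and 72.4 in the negative controls, 67.9, 73.2 and 69.9 under RES, 75.8, 73.5 and 76.3 under POG and 73.3 and 73.2 under DEG. The positive controls were 1.85-fold higher than the negative controls (log2 change 0.89, SE 0.042, edgeR FDR 2.26e-87), and the compound libraries lay on both sides of the negative controls, from 67.9 to 76.3 CPM. POG was higher than RES by 0.10 on the log2 scale (SE 0.035, edgeR FDR 0.0371), which did not hold without RES replicate 1, RES replicate 3, POG replicate 1 or POG replicate 3 (FDR 0.113 to 0.224) or with no low-count filter (FDR 0.0823). ADAMTS3, which also matures VEGF-C, ran from 4.63 to 7.02 CPM and was called between compounds, lower with DEG than with RES (log2 change −0.40, SE 0.12, edgeR FDR 0.00628). That call was lost without DEG replicate 2 (FDR 0.286), and one for POG against RES appeared without RES replicate 2 or POG replicate 2 (FDR 0.0419 and 0.0143). With all libraries that POG value (−0.25, edgeR FDR 0.0535) was also called with plain library totals, with a filter at a mean of 1 CPM or with dispersions from the groups compared (FDR 0.0498, 0.0434 and 0.0373). ADAMTS14 ran from 1.11 to 2.07 CPM with no call.

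The COMP-cleaving pair, which cut cartilage oligomeric matrix protein, split. ADAMTS12 (ENSG00000151388.10, chromosome 5, 33523535 to 33892019, minus strand) measured 67.1 and 75.8 CPM in the positive controls, 53.8 and 57.8 in the negative controls, 47.5, 47.8 and 48.9 under RES, 44.4, 46.1 and 43.5 under POG and 46.6 and 48.7 under DEG. Serum was highest, and all 8 compound libraries lay below both negative controls. It rose with serum (log2 change 0.36, SE 0.053, edgeR FDR 1.56e-09) and fell with POG (log2 change −0.32, SE 0.050, edgeR FDR 4.76e-08). The fall with RES was smaller (log2 change −0.21, SE 0.050, edgeR FDR 0.00106), as was that with DEG (log2 change −0.23, SE 0.055, edgeR FDR 0.00221). Without negative control replicate 2, the higher of the pair, the calls with RES and DEG were lost (FDR 0.163 and 0.164), and the call with DEG was also lost without DEG replicate 1 (FDR 0.111). Between POG and RES the value of −0.11 (edgeR FDR 0.0750) was called with dispersions from the groups compared (FDR 0.0186). Its paralog ADAMTS7 ranged from 78.4 to 88.1 CPM and was called in no comparison. ADAMTS7 has annotated pseudogene copies, and how reads that match several places were counted is not given in the sources used here. ADAMTS13, the protease of von Willebrand factor, was 14.7 and 14.2 CPM in the negative controls and was called between POG and RES (log2 change −0.21, SE 0.073, edgeR FDR 0.0235). That call was lost without RES replicate 2 or 3 or POG replicate 1 or 3 (FDR 0.0716 to 0.244) and with DESeq2 (adjusted p 0.0519). One with serum appeared without positive control replicate 1 (FDR 0.0437) or with plain library totals (FDR 0.0321).

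The ADAMTS-like proteins without a protease domain had 3 expressed members of 5. ADAMTSL1, or punctin, measured 74.8 and 81.2 CPM in the positive controls, 60.2 and 63.6 in the negative controls, 46.5, 50.2 and 49.3 under RES, 50.4, 49.6 and 53.3 under POG and 51.9 and 49.5 under DEG. As for ADAM12, the positive controls were highest and each compound library lay below both negative controls. It rose with serum (log2 change 0.33, SE 0.051, edgeR FDR 3.89e-09) and fell with DEG (log2 change −0.29, SE 0.053, edgeR FDR 1.15e-05). The changes were −0.35 with RES and −0.28 with POG (SE 0.048 for both, edgeR FDR 6.63e-10 and 1.24e-06), and the 4 calls held without any 1 library. The compounds were not called apart, with differences of 0.070 (95% confidence interval −0.019 to 0.16) for POG minus RES and −0.012 (95% confidence interval −0.11 to 0.088) for DEG minus POG.

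ADAMTSL4, which binds fibrillin-1 in the eye and elsewhere, showed a different order at 70.5 and 68.2 CPM in the positive controls, 84.5 and 85.4 in the negative controls, 74.3, 80.8 and 79.3 under RES, 94.7, 94.5 and 92.8 under POG and 88.5 and 85.7 under DEG. The positive controls were lowest, then RES, the negative controls, DEG and POG, with no overlap between any of these groups. It fell with serum (log2 change −0.29, SE 0.044, edgeR FDR 3.30e-09) and was higher with POG than with RES (log2 change 0.27, SE 0.035, edgeR FDR 3.10e-11). The smaller values against the negative control, −0.12 with RES (edgeR FDR 0.0436) and 0.15 with POG (edgeR FDR 0.00615), were lost without either negative control, and the RES value also without RES replicate 1 or 3 (FDR 0.0691 to 0.292 with RES, 0.0619 to 0.111 with POG). The RES call was also lost with the quasi-likelihood test, plain library totals or no low-count filter (FDR 0.0519, 0.147 and 0.120), and a call for DEG against POG appeared with dispersions from the groups compared (FDR 0.0143). ADAMTSL4 shares 736 exonic bases with the antisense gene ADAMTSL4-AS1, whose mean was 0.479 CPM. ADAMTSL4-AS1 was called lower with serum (log2 change −1.68, edgeR FDR 0.00504) and POG (−1.30, edgeR FDR 0.0312), not with RES or DEG. ADAMTSL4 also shares 43 exonic bases with MCL1 on the opposite strand, whose mean was 490 CPM. MCL1 rose with serum (log2 change 0.30, edgeR FDR 1.22e-15) and was not called with RES, POG or DEG. The part of these overlaps in the ADAMTSL4 values was not tested. ADAMTSL5 was 21 and 21.5 CPM in the negative controls and 24.4, 25.1 and 24.9 with RES, where all 3 libraries were higher than those of every other group (log2 change 0.22, SE 0.063, edgeR FDR 0.00782). This call did not hold without negative control replicate 1 (FDR 0.137) or 2 (FDR 0.0648).

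The ADAMs of brain that lack an active site and bind LGI proteins were all detected. ADAM11 measured 6.35 and 6.24 CPM in the positive controls, 9.50 and 9.25 in the negative controls, 8.28, 9.88 and 9.02 under RES, 12.2, 11.4 and 11 under POG and 10.1 and 10.6 under DEG. It was lowest with serum (log2 change −0.57, SE 0.10, edgeR FDR 4.21e-07) and highest with POG, where each library exceeded both negative controls (log2 change 0.30, SE 0.089, edgeR FDR 0.0113). The POG call was lost without negative control replicate 1, negative control replicate 2 or POG replicate 1 (FDR 0.0819 to 0.140). ADAM23 (1.42 to 2.70 CPM) and ADAM22 (0.157 to 0.680 CPM) were not called.

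The 3 compounds were then compared with each other at the same dose by mass, 1 µg/mL, which is not an equal molar dose. RES is a stilbene and POG an anthocyanin glucoside, and no structure is taken for DEG. Between POG and RES 9 of 29 members (31.0%) were called, 3 higher and 6 lower with POG, against 27.9% of all genes, 13.7% higher and 14.1% lower. Between DEG and RES 7 members (24.1%) were called, 1 higher and 6 lower with DEG, against 21.2% of all genes, 10.3% higher and 10.8% lower. Neither share stood far from the background. Between DEG and POG only ADAMTS10 was called, 1 of 29 members (3.45%) against 1.05% of all genes, 0.55% higher and 0.497% lower. ADAMTS10 was 1.17-fold higher with DEG than with POG (log2 change 0.22, SE 0.053, edgeR FDR 0.0124), and that call was lost without POG replicate 2, POG replicate 3 or either DEG library (FDR 0.0559 to 0.229) or with no low-count filter (FDR 0.0589).

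ADAMTS10 gave the largest called difference in both contrasts with RES, and for DEG minus RES it was −0.62 (SE 0.051, edgeR FDR 1.33e-30). ADAMTSL5 was lower with POG (−0.20, edgeR FDR 0.00235) and DEG (−0.26, edgeR FDR 0.000620) than with RES. ADAM11 was higher with POG than with RES (0.35, edgeR FDR 0.000118). These contrasts share the RES libraries. ADAM10 was lower with POG than with RES (log2 change −0.10, SE 0.029, edgeR FDR 0.00638), which did not hold without POG replicate 2 (FDR 0.0540). ADAMTSL4 was higher with DEG than with RES (log2 change 0.16, SE 0.040, edgeR FDR 0.00215), which did not hold without DEG replicate 1 (FDR 0.105). Calls appeared for ADAM11, DEG against RES, without RES replicate 2 (edgeR FDR 0.0497) and for ADAM33, POG against RES, without POG replicate 1 (edgeR FDR 0.0431). ADAM33 and ADAMTS5 were lower with DEG than with RES (edgeR FDR 0.0112 and 0.0367), each lost without single libraries, RES replicate 3 or DEG replicate 1 for ADAM33 and RES replicate 1, DEG replicate 1 or DEG replicate 2 for ADAMTS5 (FDR 0.0676 to 0.343 and 0.143 to 0.224). The ADAMTS5 call was lost too with the quasi-likelihood test, with no low-count filter and with DESeq2 (FDR 0.0543, 0.0622 and 0.0822).

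Inhibitors, partners and substrates of the proteases were counted from lists set by function. Of 6 tested inhibitors, 2 rose and 2 fell with serum, none was called with RES, 1 rose and 3 fell with POG, and 2 fell with DEG. TIMP3, the TIMP that inhibits ADAM17 and the aggrecanases, had a mean of 151 CPM in the positive controls, 82.3 in the negative controls, 85 with RES, 47.5 with POG and 54.4 with DEG. It rose with serum (log2 change 0.88, SE 0.041, edgeR FDR 1.54e-88) and fell with POG (log2 change −0.79, SE 0.039, edgeR FDR 5.31e-74) and DEG (log2 change −0.60, SE 0.044, edgeR FDR 1.45e-33), and with RES the value of 0.045 was not called (edgeR FDR 0.578). Of 12 tested maturation and trafficking partners, 1 rose and 5 fell with serum, 3 rose and 1 fell with RES, 5 fell with POG and 1 fell with DEG. RHBDF1, an iRhom that carries ADAM17 to the surface, fell by 0.40 under serum, 0.12 under RES, 0.11 under POG and 0.16 under DEG on the log2 scale (edgeR FDR 1.85e-19, 0.0206, 0.0415 and 0.00345). RHBDF2, the other iRhom of the list, was called lower with serum but higher with RES, and was not called with POG or DEG. FURIN, a convertase that removes the propeptide of many but not all ADAM and ADAMTS proteins, fell with POG (log2 change −0.13, SE 0.030, edgeR FDR 0.00285). It was not called with serum, RES or DEG (edgeR FDR 0.214, 0.334 and 0.198).

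Of 15 tested matrix substrates, 5 rose and 6 fell with serum, 1 rose and 8 fell with RES, 11 fell with POG and 8 fell with DEG. COL3A1, a fibrillar procollagen and substrate of ADAMTS2, fell with serum (−0.93), RES (−0.55), POG (−0.56) and DEG (−0.58), all with an edgeR FDR of 3.52e-62 or less. VCAN, which encodes versican, the substrate of ADAMTS1 and ADAMTS15, rose with serum (log2 change 1.33, SE 0.083, edgeR FDR 4.16e-52) and fell with POG (log2 change −0.27, SE 0.084, edgeR FDR 0.0182). The VCAN values of −0.16 with RES and −0.19 with DEG were not called (edgeR FDR 0.253 and 0.235). Of 24 tested membrane substrates, 7 rose and 12 fell with serum, 5 rose and 7 fell with RES, and 2 rose and 8 fell with POG and with DEG. AREG and HBEGF, the EGF-receptor ligands amphiregulin and heparin-binding EGF, moved apart with serum, AREG lower (log2 change −0.62, SE 0.078, edgeR FDR 5.70e-14) and HBEGF higher (log2 change 0.44, SE 0.051, edgeR FDR 6.51e-16). AREG was higher with RES (0.65), POG (0.35) and DEG (0.43), with an edgeR FDR of 1.13e-05 or less. HBEGF was higher with RES too (log2 change 0.16, SE 0.047, edgeR FDR 0.0122) but gave no call under POG or DEG (edgeR FDR 0.910 and 0.918). EREG, another EGF-receptor ligand of the list, went the other way from AREG, called higher with serum and lower with RES, POG and DEG. TNFSF11, which encodes RANKL, was called lower with POG and was not called with serum, RES or DEG. These counts can be read against the shares of all genes called in each comparison, 42.4%, 11.2%, 14.5% and 9.63%, and the lists were chosen with earlier results of these data known.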

How the data were processed

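Per the labels and the study's methods, libraries were prepared from polyA RNA with a kit that selects strand and were sequenced on a NovaSeq. The authors aligned reads to hg38 with STAR (BWA MEM is also named) and deposited raw counts per Ensembl gene from featureCounts, not normalized. Their versions, the annotation, the strand used in counting and the handling of reads with several matches are not given in the sources used here. DEG replicate 3 of the 13 labelled samples had no column, so 12 libraries were used.

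Members were found with GENCODE v44 gene types: 46 symbols matched, of which ADAM5 and ADAM6 are pseudogenes. Low counts were removed with filterByExpr by group, leaving 17092 genes. The 7 comparisons used the exact test of edgeR 4.0.16 (R 4.3.3), TMM scaling, dispersions over all 12 libraries (biological coefficient of variation 3.21%), and Benjamini-Hochberg adjustment over all genes (FDR under 0.05). SEs and 95% confidence intervals came from its quasi-likelihood fit. The test was checked on simulated counts. CPM per kb divides by the longest GENCODE transcript.

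Values are given for members with at least 1 CPM in a group that were called against the negative control, plus ADAM10, ADAM12 and ADAM17. Promoters are those of 3 of the 4 members called in all 4 comparisons with the negative control, the ones with the largest absolute log2 fold change (ADAM12 was the fourth). Role and pathway lists came from general knowledge. Members and lists were chosen with earlier results of these data known.

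Alternatives were the quasi-likelihood test, DESeq2 1.42.0, median-of-ratios scaling, plain totals, no low-count filter, a filter at a mean of 1 CPM (also as the level that counts as expressed), dispersions from the groups compared, and leaving out each library.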

Additional observations from a re-analysis of the deposited data

How the results depend on the processing

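No paired analysis was possible because replicate numbers only follow accession order. Across 1646 alternative values for the members called in any comparison, 0 reversed, 81 lost the call and 19 gained it. These values cover all 7 comparisons of each such member, so many belong to comparisons with no call to lose. The 81 set against 1646 therefore understates how often a call was lost. Without 1 library at a time, the members called numbered 13 to 17 with serum, 4 to 8 with RES, 6 to 9 with POG, 4 with DEG, 7 to 9 for POG against RES, 3 to 7 for DEG against RES and 0 to 1 for DEG against POG. A group left with 1 library was assumed to vary like the others. For DEG against POG, 0 members were called with no low-count filter and 3 with dispersions from the groups compared. With plain library totals the summed CPM was 893.7 for the sheddases with POG, 114 and 68.7 for the proteoglycan-cleaving ADAMTS in positive and negative controls, and 135 and 80.7 for the procollagen N-propeptidases in positive controls and with DEG. In the 250 bases before the start alone, 6.57% of promoters held AP-1, 11.9% TEAD, 10.9% the antioxidant core and 6.34% the E-box. Members under 1 CPM rest on few reads, and small changes there were not detectable.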
